A study of Mus musculus with 20 samples.

Results

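Muscle from mice given tetrathiomolybdate (TM) and N-acetylcysteine (NAC) together for 28 days, written TM+NAC, was compared with muscle from mice labelled Control, whose label names no vehicle and no duration. The gastrocnemius, a calf muscle made mostly of fast fibres, was sampled from male C57BL/6N animals in both groups. The comparison rests on the treatment label of 10 of 20 libraries, 5 TM+NAC and 5 Control, and covers 9696 of 31618 listed genes, those with a mean FPKM (fragments per kilobase of transcript and 1000000 fragments) of at least 1 over the 20 libraries. The other libraries were 5 given TM alone and 5 given NAC alone for 28 days in the same strain and sex. They entered that mean FPKM, and so the choice of tested genes, and the estimate of the spread between libraries. They also served for direct tests against TM+NAC and for a test of the joint change against the single changes. Neither dose nor route is stated in the labels. The labels number the libraries 1 to 5 without saying that each is a separate animal, so the p-values measure the spread between libraries, which may in part be technical.

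TM binds copper tightly and lowers the amount that copper enzymes can use, and NAC supplies cysteine for glutathione, the main thiol antioxidant of cells. Lysyl oxidase, encoded by Lox, is one of the copper enzymes: it oxidises lysines in collagen and elastin so that the fibres become cross-linked. In muscle the matrix is made largely by fibroblasts between the fibres, and a whole-muscle library mixes their RNA with that of fibres, vessels, nerve and tendon. In such bulk samples more cells of a type and more RNA per cell cannot be told apart.

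The TM+NAC libraries held 61.6 to 63.7 M counts and the Control libraries 56.2 to 62.9 M, where M stands for 1000000, and the tested genes took 98.2 to 98.5% of them in TM+NAC and 98.4 to 98.7% in Control. The 16 fast-fibre genes looked at summed to between 154241 and 180845 CPM (counts per M, each library scaled to a total of 1000000 counts) in TM+NAC libraries and between 165512 and 189855 CPM in Control libraries, so transcripts of the labelled tissue were abundant in both groups. Mitochondrially encoded genes took 13.4 to 15.6% of counts in TM+NAC and 13.2 to 17.1% in Control. The sum of 4 Y-linked genes was 139 to 160 CPM in TM+NAC and 129 to 158 CPM in Control. Xist, the X-inactivation RNA made in female cells, stood at 1.28 to 3.27 CPM in all 5 TM+NAC libraries and at 0 to 0.843 CPM in the Control libraries, 0 to 0.478 CPM in TM libraries and 0 to 0.814 CPM in NAC libraries.

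Muscle given both compounds differed from control muscle at 34 genes, 0.351% of those tested. Of these, 30 (0.309%) were higher and 4 (0.0413%) were lower in TM+NAC at an adjusted p under 0.05 (edgeR quasi-likelihood test with Benjamini-Hochberg adjustment), and 619 genes had an unadjusted p under 0.05. The median log2 fold over all tested genes was -0.01. The genes that rose fell into a small set of matrix and stress genes, Lox, Thbs1, Fn1, Timp1 and Hmox1, and a set of 25 other genes. Of the 30, 9 stood on a list of neuron, glial or choroid plexus genes. Of the 30, 26 were more than 2-fold higher and 29 did not overlap between the groups, where 2.17% of all tested genes had every TM+NAC library above every Control library. The 4 lower genes also did not overlap, where 0.464% of tested genes had every TM+NAC library below every Control library.

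All 30 higher genes were weakly expressed over the series, with a mean of 1.02 to 4.60 FPKM. In 22 of them the Control mean was under 1 FPKM, so they entered the test through libraries in which they were high. Among the 4189 genes with a mean of at least 5 FPKM, which include the abundant genes of the muscle fibre, none was called higher and 3 were called lower. When only those genes were tested, edgeR called 0, with 214 at an unadjusted p under 0.05.

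**Figure D1:**
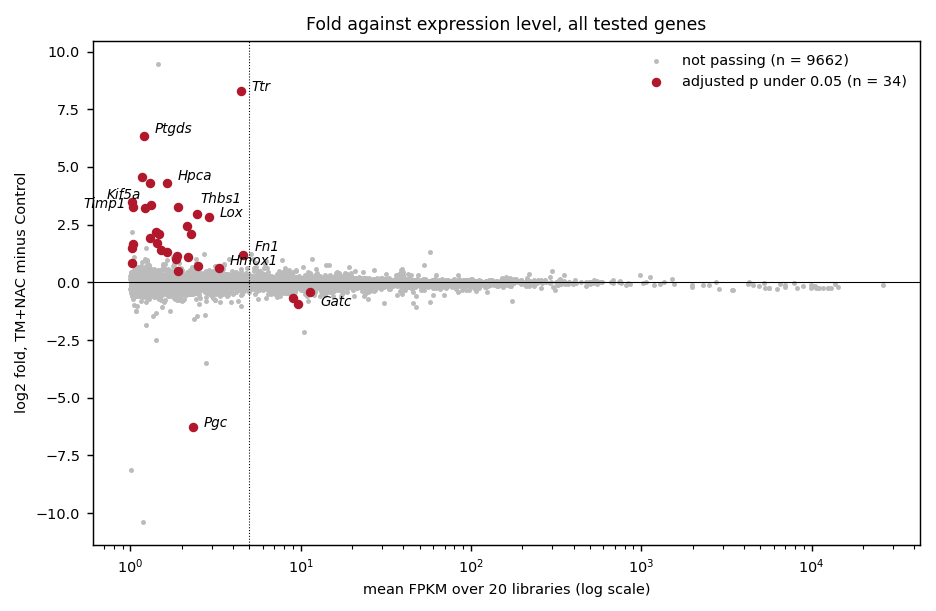
Log2 fold of TM+NAC minus Control (vertical axis) against the mean FPKM over 20 libraries (horizontal, log scale) for 9696 genes, with the 34 genes at an adjusted p under 0.05 in red and the dotted line at 5 FPKM. Every higher call lies at 1.02 to 4.60 FPKM, and no red point above 0 lies right of the line.

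The called matrix genes were Lox, Thbs1, Fn1 and Timp1. Lox was measured at 33.9, 39.4, 41.8, 38.5 and 68.8 CPM in TM+NAC libraries 1 to 5, against 4.13, 5.14, 9.90, 3.95 and 6.48 CPM in Control libraries 1 to 5. The lowest TM+NAC library was far above the highest Control library, and library 5 of TM+NAC stood well above the other 4. The log2 fold was 2.85 ± 0.28 (SE; adjusted p = 2.05e-05), which is 7.22-fold. Per length, Lox averaged 8.04 FPKM in TM+NAC and 1.02 FPKM in Control.

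Thbs1 (chromosome 2, 118111876 to 118127133 in GRCm38) encodes thrombospondin 1, a secreted glycoprotein that binds matrix and cell surface receptors and releases TGF-beta from its latent form. It was measured at 40.4, 48.0, 50.1, 42.6 and 66.9 CPM in TM+NAC, against 3.58, 7.71, 5.98, 3.08 and 10.1 CPM in Control. The groups were far apart, with a log2 fold of 2.96 ± 0.36 (SE; adjusted p = 0.000276), and library 5 was again the highest of the TM+NAC group. Fn1 (chromosome 1, 71585520 to 71653175) encodes fibronectin, the adhesive matrix protein on which collagen fibrils are assembled. It was measured at 91.1, 94.3, 116, 110 and 143 CPM in TM+NAC, against 43.0, 52.5, 50.5, 28.9 and 56.9 CPM in Control, a log2 fold of 1.20 ± 0.17 (SE; adjusted p = 0.00142) without overlap.

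Timp1 (chromosome X, 20870166 to 20874735) encodes a secreted inhibitor of matrix metalloproteinases. It stood at 2.90, 2.98, 3.09, 3.06 and 6.96 CPM in TM+NAC, against 0.521, 0.642, 0.392, 0.131 and 0.255 CPM in Control. All 5 TM+NAC libraries were above all Control libraries, and the log2 fold was 3.23 ± 0.65 (SE; adjusted p = 0.0245). The call was lost without any single Control library, without Control libraries 1, 2 and 5 together, without TM+NAC library 5 and with limma voom, while the log2 fold stayed positive under every alternative tried for it.

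No other matrix gene on the filtered lists passed. Of 6 tested fibrillar collagen genes, the tensile proteins of connective tissue, none passed and 5 had a positive log2 fold, with a list median of 0.55 beside -0.01 for all tested genes. DESeq2 and limma on log2(FPKM + 1) each called 1 of the 6, limma with voom weights called 0, and 2 of the 6 had an unadjusted p under 0.05. Col5a2, a minor fibril collagen, was closest, at 28.4, 30.1, 35.1, 37.1 and 39.1 CPM in TM+NAC against 20.5, 20.7, 26.5, 11.7 and 24.5 CPM in Control (log2 fold 0.65 ± 0.16 SE, adjusted p = 0.110). Col1a1, a chain of the main fibrillar collagen, had a log2 fold of 0.67 ± 0.35 (SE; adjusted p = 0.833), and its groups overlapped.

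Among 10 tested genes of fibronectin and the matricellular proteins, which modulate how cells hold the matrix, Thbs1 and Fn1 passed. All 10 had a positive log2 fold, with a median of 0.55. Of 16 tested genes of collagen processing and cross-linking only Lox passed, 15 were positive and the median was 0.22. Of 8 elastic fibre genes 7 and of 15 basement membrane genes 12 were positive, with medians of 0.18 and 0.08, and none passed by edgeR, DESeq2 or limma, with 1 and 0 at an unadjusted p under 0.05. Of 7 tested copper-dependent enzymes, a list that Lox also belongs to, no other gene passed.

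Markers of the cells that make or border the matrix are given beside these counts. Of 12 tested genes of fibro-adipogenic progenitors and fibroblasts none passed by edgeR, DESeq2 or limma, none had an unadjusted p under 0.05, and 6 were positive. Their median of -0.0025 changed sign with the scaling, and their sum was 864 to 1229 CPM in TM+NAC and 568 to 1170 CPM in Control. The 10 tendon genes summed to 211 to 537 CPM in TM+NAC and 90.5 to 256 CPM in Control, all 7 tested members were positive (median 0.46), and none passed or had an unadjusted p under 0.05. The 14 cartilage genes summed to 37.0 to 71.6 CPM in TM+NAC and 13.5 to 26.0 CPM in Control, and to at most 36.5 CPM in TM and 47.4 CPM in NAC. Only 2 of them were tested, both positive, none passed and 1 had an unadjusted p under 0.05. The part of these cells in the Lox, Thbs1 and Fn1 differences was not tested.

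Further matrix and inflammation genes lay below the expression filter. In a fit of all 31618 genes with no filter, 541 genes (1.71%) were higher in TM+NAC than in Control and 25 (0.0791%) were lower. Under the filter had been 502 of the 541. Most of the 541 were not particular to TM+NAC: 417 were above every Control library in all 8 TM and NAC libraries rich in the neuron transcripts described below. Among these 417, 264 were not above every Control library in the 2 TM and NAC libraries low in those transcripts. That division was set after the values were seen. The 541 are therefore not a count of matrix and inflammation genes. Of the 541 higher genes, 12 also passed against TM and against NAC. As these 12 were picked by passing against Control, TM and NAC, their standing above the other libraries is largely given by that choice. Among them were Lox, Thbs1, Fn1, Ltbp2, Ccn5, Mmp3, Saa3, Cxcl5, Cyp1b1, Fat1 and Grem1, and Cyp1b1, Fat1 and Grem1 belonged to no list and were chosen after their values were seen.

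Mmp3 encodes stromelysin 1, a metalloproteinase that degrades proteoglycans, fibronectin and basement membrane. It stood at 5.72, 5.26, 4.66, 5.94 and 14.4 CPM in TM+NAC, against 0.278, 0.115, 0.160, 0.131 and 0.302 CPM in Control. Every TM+NAC library was above all 15 other libraries, and in the fit with no filter the log2 fold was 5.09 ± 0.63 (SE; adjusted p = 0.000288). Saa3, an acute phase apolipoprotein made by inflamed fibroblasts and macrophages in the mouse, stood at 4.57, 4.84, 4.60, 4.60 and 14.7 CPM in TM+NAC and at 0 in every Control library. Set against a floor of 3 counts over the Control group, it was at least 662-fold higher in TM+NAC (adjusted p = 0.000166). Cxcl5, a neutrophil-attracting chemokine, was measured at 2.32, 3.47, 2.55, 3.55 and 11.7 CPM in TM+NAC and at 0 in 4 Control libraries and 0.0636 CPM in the fifth. In all 3 genes library 5 was the highest of the TM+NAC group, as it was for Timp1, and the other 4 libraries lay close together.

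Ltbp2, a latent TGF-beta binding protein of elastic fibres, stood at 2.65 to 4.41 CPM in TM+NAC and 0.350 to 0.748 CPM in Control. Ccn5, a matricellular protein, stood at 3.09 to 5.33 CPM in TM+NAC and 0.494 to 0.939 CPM in Control. In both genes every TM+NAC library was above all 15 other libraries, which is no separate support since both were picked by passing against all other groups. The adjusted p against Control was 0.000749 for each. Grem1, a secreted BMP antagonist, stood at 1.49 to 5.16 CPM in TM+NAC and 0 to 0.111 CPM in Control, and Hmga2, a chromatin protein of embryonic and proliferating cells that was chosen after its values were seen, had 0.552 to 0.926 CPM in TM+NAC and 0 in every Control library. Grem1 had an adjusted p of 0.00110 and Hmga2 of 0.00256.

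Col2a1, the fibrillar collagen of cartilage, was at 12.8, 16.8, 15, 16.0 and 21.3 CPM in TM+NAC, against 0.347, 0.214, 0.356, 0.148 and 3.28 CPM in Control. The groups did not overlap, and its log2 fold with no filter was 4.15 ± 0.92 (SE; adjusted p = 0.0156). It was the only one of 12 cartilage genes under the filter to pass. Acan, the aggregating proteoglycan that accompanies it in cartilage, averaged 0.443 CPM in TM+NAC and 0.575 CPM in Control. Fibril collagens Col11a1 and the fibril-associated Col12a1 passed as well, with log2 folds of 2.66 ± 0.55 and 2.72 ± 0.48 (SE) and adjusted p of 0.00957 and 0.00297.

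Of 15 inflamed stroma and acute phase genes under the filter, 6 passed with no filter, all higher: Cxcl5, Saa3, Cxcl1, Ccl2, Lif and Lcn2. Over all gene lists 39 of 327 members under the filter passed, these included, and all 39 were higher. Among all 31618 genes of that fit 1.71% were called higher. Ccl2, a monocyte chemoattractant, averaged 1.76 CPM in TM+NAC and 0.368 CPM in Control, and Lcn2, an iron-sequestering protein of the acute phase, 5.04 CPM in TM+NAC and 0.427 CPM in Control. Markers of the cells that these factors attract are given beside them. Of 5 tested macrophage genes none passed by edgeR, DESeq2 or limma or had an unadjusted p under 0.05. The 10 neutrophil genes summed to 0.745 to 1.15 CPM in TM+NAC and 0.208 to 15.3 CPM (median 2.35) in Control. Only 3 of them were tested, and all 3 had a negative log2 fold (median -3.48). None passed by edgeR or limma, DESeq2 called 1, and 1 had an unadjusted p under 0.05.

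**Figure D2:**
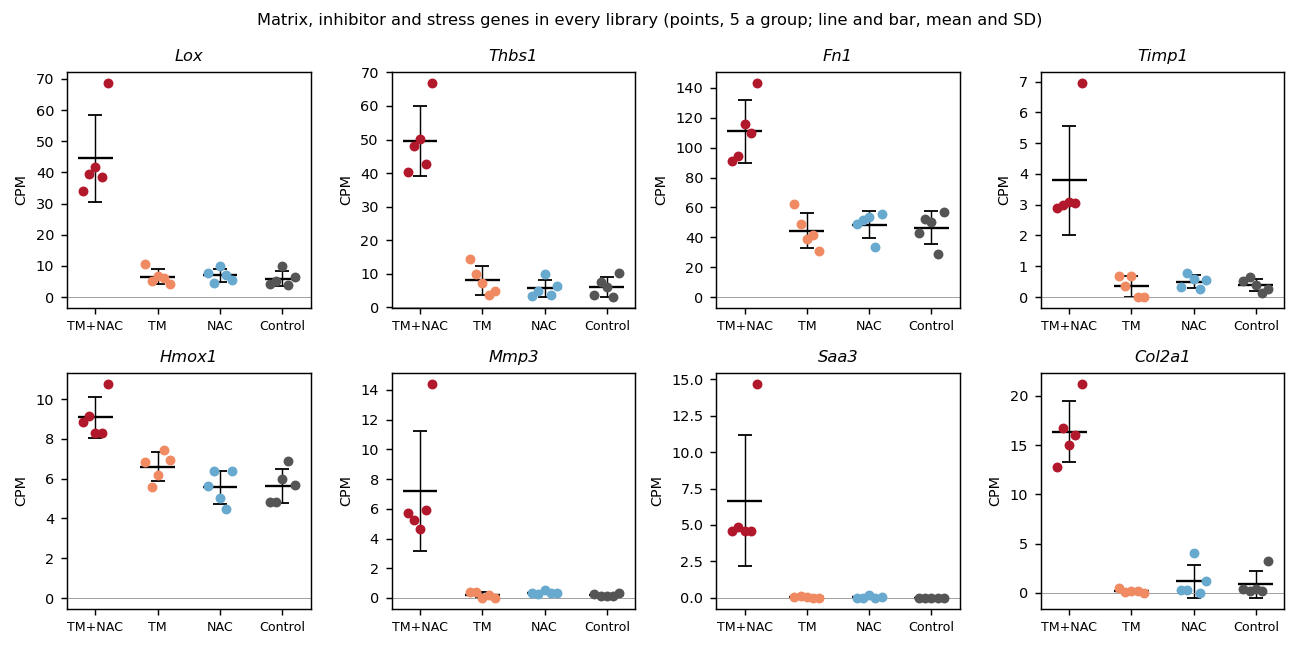
CPM (vertical axes, linear) of 8 matrix, inhibitor and stress genes in each library of the TM+NAC, TM, NAC and Control groups, as points, with the group mean and SD as line and bar (n = 5 each). In Lox, Thbs1, Mmp3, Saa3 and Col2a1 the 5 TM+NAC libraries lie above all others, and the fifth TM+NAC point is the highest in each.

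The promoters of Mmp3, Saa3 and Timp1, for which library 5 was the highest of the TM+NAC group, are shown as examples. Library 5 was also the highest for Lox, Thbs1, Fn1, Hmox1, Ttr and Kif5a, so that pattern does not set Mmp3, Saa3 and Timp1 apart. Each sequence runs 5′ to 3′ along the gene, from 250 bases before to 50 bases after the start in RefSeq (GRCm38.p6). Capitals mark the AP-1 motif TGANTCA and the C/EBP-type motif TTNNGNAA, searched on both strands, which did not overlap each other here.
Mmp3 promoter, chr9:7445572-7445871, plus strand: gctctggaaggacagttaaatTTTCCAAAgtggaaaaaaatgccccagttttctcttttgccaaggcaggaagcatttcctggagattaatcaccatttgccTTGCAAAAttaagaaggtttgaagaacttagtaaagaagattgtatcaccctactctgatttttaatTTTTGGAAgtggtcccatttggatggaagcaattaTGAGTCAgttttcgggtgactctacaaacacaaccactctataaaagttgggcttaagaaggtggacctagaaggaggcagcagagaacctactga
Saa3 promoter, chr7:46715627-46715926, minus strand: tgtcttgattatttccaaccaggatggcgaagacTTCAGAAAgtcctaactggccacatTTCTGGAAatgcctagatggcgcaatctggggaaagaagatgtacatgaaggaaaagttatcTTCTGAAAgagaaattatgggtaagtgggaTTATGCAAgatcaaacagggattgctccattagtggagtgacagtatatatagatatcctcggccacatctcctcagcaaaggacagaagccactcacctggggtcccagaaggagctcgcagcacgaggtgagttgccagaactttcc
Timp1 promoter, chrX:20869916-20870215, plus strand: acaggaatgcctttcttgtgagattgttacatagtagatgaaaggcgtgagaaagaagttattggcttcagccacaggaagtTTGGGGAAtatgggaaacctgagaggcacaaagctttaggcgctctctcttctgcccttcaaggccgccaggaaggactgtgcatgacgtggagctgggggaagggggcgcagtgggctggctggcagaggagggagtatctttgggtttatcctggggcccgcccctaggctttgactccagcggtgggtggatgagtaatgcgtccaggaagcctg
The AP-1 motif occurred in the Mmp3 window, 46 bases before the start, and not in the other windows, and 7.81% of 32851 promoters of this length in the table held it. The C/EBP-type motif occurred at 3 places for Mmp3, 4 for Saa3 and 1 for Timp1. It is common, with at least 1 match in 40.7% of those promoters and at least 3 in 3.60%, and a match is a description of the letters only.

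Hmox1, which encodes haem oxygenase 1, the enzyme that breaks down haem and a standard target of the oxidative stress factor NRF2, also rose. It was measured at 8.87, 9.15, 8.30, 8.29 and 10.8 CPM in TM+NAC, against 4.81, 4.82, 6.00, 6.89 and 5.66 CPM in Control. All 5 TM+NAC libraries were above all Control libraries, and the log2 fold was 0.61 ± 0.13 (SE; adjusted p = 0.0302). The call was lost without Control library 1, 2, 3 or 5 and without TM+NAC library 1, 2 or 5, as well as with limma voom, without Control libraries 1, 2 and 5 together, and when only the groups compared were fitted.

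Other genes of the redox response did not pass. Of 26 tested NRF2 targets only Hmox1 did, 15 were positive and the median was 0.04. Nqo1, a quinone reductase, had a log2 fold of 0.08 ± 0.11, Txnrd1, a thioredoxin reductase, of 0.15 ± 0.10, and Gclc, the rate-limiting subunit of glutathione synthesis, of -0.03 ± 0.10 (SE; adjusted p = 0.997, 0.960 and 0.997). Of 32 antioxidant enzymes none passed by edgeR or limma, DESeq2 called 1, and 1 had an unadjusted p under 0.05. It was Msrb3, a methionine sulphoxide reductase, at 98.4, 72.6, 94.6, 84.5 and 75.6 CPM in TM+NAC against 139, 114, 121, 112 and 124 CPM in Control, without overlap and with an adjusted p of 0.0573. Of 16 tested genes of cysteine and glutathione metabolism, the pathway NAC feeds, none passed by edgeR, DESeq2 or limma and none had an unadjusted p under 0.05.

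Genes of copper handling did not pass either. Mt2, a metallothionein that binds zinc and copper and that metals, glucocorticoids and inflammation induce, stood at 3.97, 4.30, 5.36, 5.28 and 8.56 CPM in TM+NAC, against 1.82, 1.40, 2.21, 3.38 and 2.13 CPM in Control. The groups did not overlap, and the log2 fold was 1.24 ± 0.34 (SE) with an adjusted p of 0.187 by edgeR and 0.0227 by DESeq2. Its neighbour Mt1 had a log2 fold of 0.63 ± 0.24 (SE; adjusted p = 0.537) with overlap. Slc31a1, the copper importer, had a log2 fold of 0.10 ± 0.09, Atox1, a copper chaperone, of 0.14 ± 0.24, Ccs, the chaperone that loads copper into superoxide dismutase, of 0.08 ± 0.14, and Sod1, that enzyme, of -0.04 ± 0.08 (SE; all at an adjusted p of 0.997). Of 15 tested genes of copper uptake and export, Mt2 among them, none passed by edgeR or limma, DESeq2 called only Mt2, and 3 had an unadjusted p under 0.05. Of 7 molybdenum enzymes and cofactor genes none passed by edgeR, DESeq2 or limma, and 1 had an unadjusted p under 0.05.

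Other higher genes are known from the nervous system. Ttr, the thyroid hormone carrier made by choroid plexus and liver, was measured at 16.9, 17.8, 17.0, 19.1 and 20.9 CPM in TM+NAC, against 0.104, 0, 0, 0.164 and 0 CPM in Control. The groups were far apart, with a log2 fold of 8.29 ± 1.13 (SE; adjusted p = 0.000896). The calls on Ttr, Ptgds and Kif5a were lost with limma voom and without Control libraries 1, 2 and 5 together, where Ttr had adjusted p of 0.290 and 0.166. Alb, the main secreted protein of liver, averaged 1.07 CPM in TM+NAC and 0.922 CPM in Control. Of 9 choroid plexus markers under the filter none passed with no filter, and Folr1, Kcnj13 and Otx2, which mark its epithelium, averaged 0.287, 0.265 and 0.115 CPM in TM+NAC and 0.0571, 0.0932 and 0.0263 CPM in Control. Ptgds, a prostaglandin D synthase of meninges and choroid plexus, ranged over 3.68 to 5.21 CPM in TM+NAC and over 0 to 0.267 CPM in Control (adjusted p = 0.00639).

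Of 9 tested neuron markers 6 passed, all higher, among them Kif5a, a kinesin motor, the synaptic vesicle protein Syp, the calmodulin-binding Nrgn, the microtubule regulator Stmn3 and the vesicle fusion protein Snap25. The list median was 2.11. DESeq2 called 8 of the 9, limma on log2(FPKM + 1) called 6 and limma with voom weights called 0. Snap25 was measured at 11.4, 13.3, 12.0, 12.6 and 17.0 CPM in TM+NAC, against 1.08, 0.659, 0.997, 1.67 and 2.2 CPM in Control (log2 fold 3.25 ± 0.67 SE, adjusted p = 0.0297). The Snap25 call was lost in 12 of 22 alternatives: without Control library 1, 2, 3 or 4 or TM+NAC library 2, 3, 4 or 5, without Control libraries 1, 2 and 5 together, with limma voom, with quantile normalization, and with the replicate number as a block (adjusted p = 0.0652). Kif5a was measured at 15.3, 16.9, 18.5, 14.5 and 21.7 CPM in TM+NAC, against 0.591, 0.807, 0.944, 0.706 and 1.10 CPM in Control (log2 fold 4.32 ± 0.67 SE, adjusted p = 0.00302). Of 13 neuron markers under the filter, 11 passed with no filter, all higher, beside 39 of 327 such members over all lists and 1.71% of all genes. Among the 11 was Syt1, the calcium sensor of vesicle release, at a mean of 9.20 CPM in TM+NAC and 0.436 CPM in Control.

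Some glial genes were higher in TM+NAC as well. Mobp, a myelin gene of oligodendrocytes, averaged 6.77 CPM in TM+NAC and 0.0872 CPM in Control, and Mog, another, 0.473 CPM in TM+NAC and 0 in every Control library. Gfap, the intermediate filament of astrocytes, averaged 3.05 CPM in TM+NAC and 0.0977 CPM in Control, and Slc1a2, the astrocyte glutamate transporter, 13.5 CPM in TM+NAC and 0.328 CPM in Control. With no filter, 5 of 9 oligodendrocyte and 4 of 7 astrocyte markers under the filter passed, all higher, beside 39 of 327 such members over all lists and 1.71% of all genes. Of the 5 astrocyte markers above the filter none passed by edgeR, DESeq2 or limma, 2 had an unadjusted p under 0.05, 3 were positive and 2 negative, and the median was 0.07. All 12 astrocyte markers together summed to 1203 to 1495 CPM in TM+NAC and 1159 to 1256 CPM in Control, with overlap. Schwann cells, the glia of peripheral nerve, had 1 of 7 tested markers passing and 0 of 6 passing among those under the filter, with sums of 193 to 518 CPM in TM+NAC and 81.3 to 491 CPM in Control.

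Most TM libraries and most NAC libraries also had more of these transcripts than Control. All 22 neuron markers summed to 460 to 502 CPM in TM+NAC and 392 to 483 CPM in Control, with overlap. Camk2a, which muscle expresses strongly itself, was left out after the values were seen. The other 21 markers summed to 108 to 150 CPM in TM+NAC and 14.9 to 26.9 CPM in Control. This 21-gene sum was 77.7 to 94.5 CPM in 4 TM libraries and 127 to 137 CPM in 4 NAC libraries. It was 23.3 CPM in TM library 1 and 17.4 CPM in NAC library 4. Of the 30 higher genes, 17 were above every Control library in all 8 of those TM and NAC libraries and in neither of TM library 1 and NAC library 4, a division set after the values were seen. None of the 25 higher genes other than Lox, Thbs1, Fn1, Timp1 and Hmox1 passed against TM or against NAC. Ttr, at 2.23 to 3.87 CPM in the 4 TM libraries and 3.73 to 5.17 CPM in the 4 NAC libraries and at 0 in TM library 1 and NAC library 4, had an adjusted p of 0.463 against TM and 0.409 against NAC. Every TM+NAC library nonetheless had more Ttr than any TM or NAC library. Every TM+NAC library had a 21-gene neuron sum above that of every Control library, where these transcripts were low but present. In this comparison treatment and the amount of brain-type RNA therefore cannot be told apart.

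**Figure D3:**
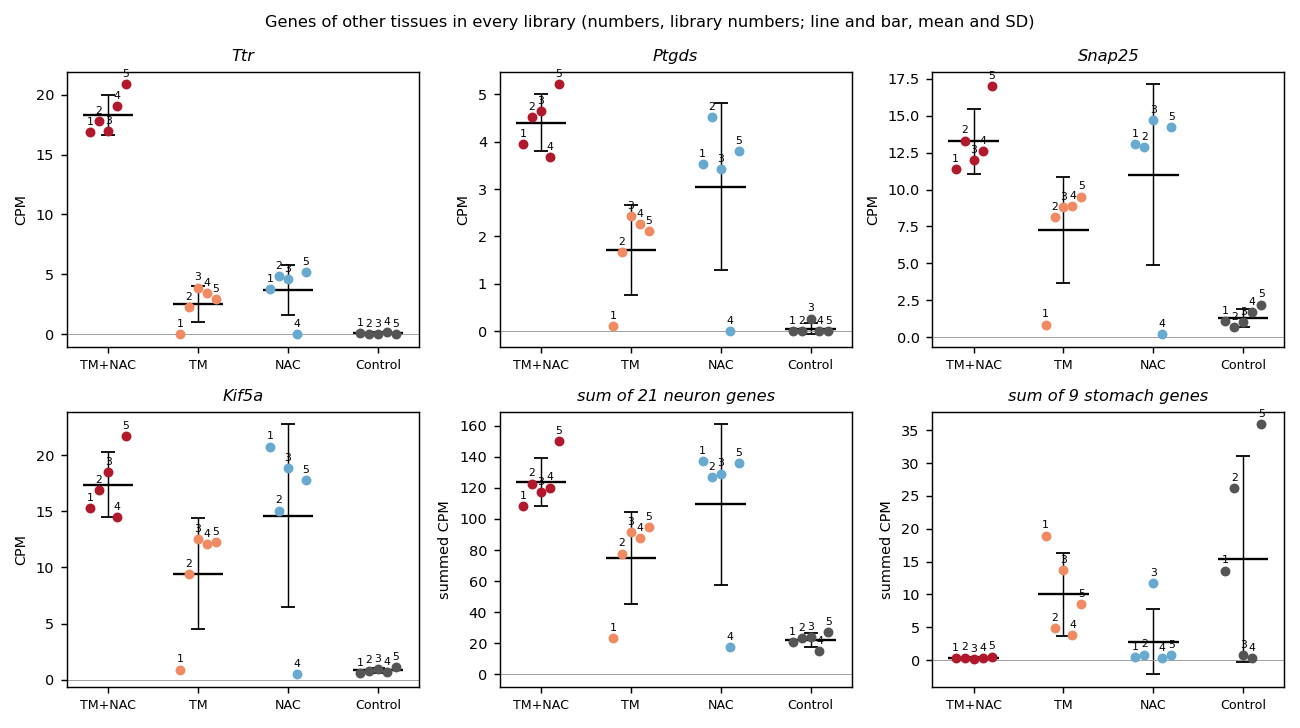
CPM of Ttr, Ptgds, Snap25 and Kif5a, and summed CPM of 21 neuron genes and of 9 stomach genes (vertical axes, linear), in each library of the TM+NAC, TM, NAC and Control groups, numbered by library, with mean and SD as line and bar (n = 5 each). TM library 1 and NAC library 4 sit at the Control level in the neuron sum, and the stomach sum is under 1 CPM in all TM+NAC libraries and above 13 CPM in Control libraries 1, 2 and 5.

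Of the 25 other higher genes, Enpp2, Meg3, Chd3, Ndrg4, Nsf, Basp1, Gpm6b and Stmn1 did not follow that division cleanly. Ndrg4, Nsf and Basp1 were above every Control library in all 8 of those TM and NAC libraries. They were also above in 1 of TM library 1 and NAC library 4. Gpm6b was above every Control library in 6 of the 8 and Stmn1 in 4, and neither was in TM library 1 or NAC library 4. Enpp2, which encodes autotaxin, the enzyme that makes lysophosphatidic acid and is expressed in choroid plexus, fat and muscle, was at 23.8, 18.6, 21.8, 22.8 and 23.3 CPM in TM+NAC, against 13.8, 14.4, 13.4, 11.4 and 11.5 CPM in Control. Its spread within a group was small, with a log2 fold of 0.71 ± 0.09 (SE; adjusted p = 0.000500), and it stood at 12.7 to 15.9 CPM in TM and 15.9 to 18.7 CPM in NAC. Against TM its adjusted p was 0.0583 and against NAC 0.409. Meg3, an imprinted long non-coding RNA, ranged over 42.4 to 59.3 CPM in TM+NAC and 15.3 to 27.0 CPM in Control (log2 fold 1.03 ± 0.16 SE, adjusted p = 0.00302), and at 24.3 CPM in NAC library 4 against 50.8 to 58.0 CPM in the other NAC libraries. Chd3, a chromatin remodeller, ranged over 12.2 to 14.0 CPM in TM+NAC and 4.50 to 8.53 CPM in Control (adjusted p = 0.00639).

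The 4 lower genes were Gatc, Pgc, 2900076A07Rik and 5430431A17Rik, the last pair outside the naming rule and named to complete the count. Gatc, a subunit of the enzyme that makes glutaminyl-tRNA in mitochondria, was at 23.0, 19.8, 21.3, 18.9 and 20.2 CPM in TM+NAC, against 26.2, 26.9, 25.0, 26.6 and 26.0 CPM in Control. The groups did not overlap although the log2 fold was only -0.41 ± 0.08 (SE; adjusted p = 0.0238). 2900076A07Rik had a log2 fold of -0.67 ± 0.13 and 5430431A17Rik of -0.95 ± 0.19 (SE; both at an adjusted p of 0.0238), also without overlap. The call on Gatc was lost without Control library 1, 2, 4 or 5 or TM+NAC library 2, 3, 4 or 5, and with limma on voom weights or on log2(FPKM + 1), and no lower gene was called when library totals replaced TMM scaling.

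Pgc encodes the stomach protease precursor pepsinogen C. It was at 0, 0.0476, 0.179, 0.204 and 0.112 CPM in TM+NAC libraries 1 to 5, against 7.02, 13.3, 0.231, 0.246 and 20.2 CPM in Control libraries 1 to 5. Control libraries 1, 2 and 5 were high, and Control libraries 3 and 4 were close to TM+NAC, so the log2 fold of -6.28 ± 1.37 (SE; adjusted p = 0.0489) rests on 3 libraries. It was lost without Control library 1, 2 or 5 and without any single TM+NAC library. Stomach genes chosen after the values were seen followed the same libraries: Gkn2, a gastric mucosal protein, was at 2.73, 4.73, 0, 0.0492 and 5.49 CPM in Control libraries 1 to 5 and at 0 in all TM+NAC libraries. The sum of 9 stomach genes was 0.179 to 0.559 CPM in TM+NAC and 13.6, 26.2, 0.766, 0.295 and 35.9 CPM in Control libraries 1 to 5, and it was 3.85 to 19 CPM in the TM libraries and 11.7 CPM in NAC library 3. Without Control libraries 1, 2 and 5, edgeR called 6 genes higher and 0 lower.

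No gene of the fibre-type lists passed. The median fold of the slow-fibre list was below 0, but its summed CPM overlapped between the groups, at 4440 to 7010 CPM (median 5053) in TM+NAC and 4582 to 6947 CPM (median 5071) in Control. Of 16 fast-fibre genes, none passed by edgeR, DESeq2 or limma, 1 had an unadjusted p under 0.05, and the median of -0.07 changed sign with the scaling. Of 15 tested slow-fibre genes none passed by edgeR, DESeq2 or limma, 6 had an unadjusted p under 0.05 where 6.38% of all tested genes did, 10 were negative and the median was -0.31, negative under every scaling tried. Myh7, the slow myosin heavy chain, was at 133, 148, 412, 316 and 135 CPM in TM+NAC, against 381, 550, 334, 416 and 339 CPM in Control (log2 fold -0.91 ± 0.40 SE, adjusted p = 0.680). TM+NAC libraries 3 and 4 lay among the Control libraries and the other 3 below them. Mybph, a myosin-binding protein, lay between 77.0 and 131 CPM in TM+NAC and 133 to 260 CPM in Control without overlap, with a log2 fold of -1.06 ± 0.27 (SE) and an adjusted p of 0.146 by edgeR and 0.0450 by DESeq2. It was the only one of 23 sarcomere and Z disc genes that DESeq2 called.

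Genes of muscle wasting did not pass. Fbxo32, the ubiquitin ligase atrogin-1, averaged 227 CPM in TM+NAC and 316 CPM in Control (log2 fold -0.55 ± 0.27 SE, adjusted p = 0.805), and Trim63, the ligase MuRF1, had a log2 fold of -0.24 ± 0.16 (SE; adjusted p = 0.970). Mstn, the growth inhibitor myostatin, had a log2 fold of -0.09 ± 0.17 (SE; adjusted p = 0.997). Nmrk2, a muscle kinase of NAD synthesis, averaged 81.7 CPM in TM+NAC and 56.8 CPM in Control (log2 fold 0.46 ± 0.23 SE, adjusted p = 0.814). Of 21 genes of the atrophy programme none passed by edgeR or limma, 4 had an unadjusted p under 0.05, and 12 were positive. DESeq2 called 1, which was Mt2, the metallothionein that the copper uptake and export list also holds.

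All 13 protein genes of the mitochondrial genome had a negative log2 fold, with a median of -0.22, and none passed by edgeR, DESeq2 or limma, with 2 at an unadjusted p under 0.05. Their sums overlapped, at 132021 to 153045 CPM in TM+NAC and 129897 to 167743 CPM in Control, and these genes are transcribed together from 1 small genome. The nuclear genes of the respiratory chain lay near 0: complex I had 15 positive and 22 negative of 37 tested, and the ATP synthase 9 positive and 7 negative of 16. Both lists had no gene passing by edgeR, DESeq2 or limma and none at an unadjusted p under 0.05. The median of complex I was -0.01 and changed sign with the scaling.

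Some lists were one-sided without a passing gene, where 4643 of all tested genes had a positive and 5053 a negative log2 fold. All 12 tested genes of antigen presentation had a negative log2 fold (median -0.21), as had 11 of 12 adipocyte genes (median -0.19), with 1 and 0 at an unadjusted p under 0.05. Of 17 immediate early genes 15 were positive (median 0.22), and of 24 genes of endoplasmic reticulum stress 19 (median 0.10), with 0 and 2 at an unadjusted p under 0.05. Of 28 genes of autophagy and the lysosome 22 were positive (median 0.06), 2 had an unadjusted p under 0.05, and 6 had every TM+NAC library above every Control library, where 2.17% of all tested genes did. DESeq2 and limma called none of these 5 lists' genes.

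**Figure D4:**
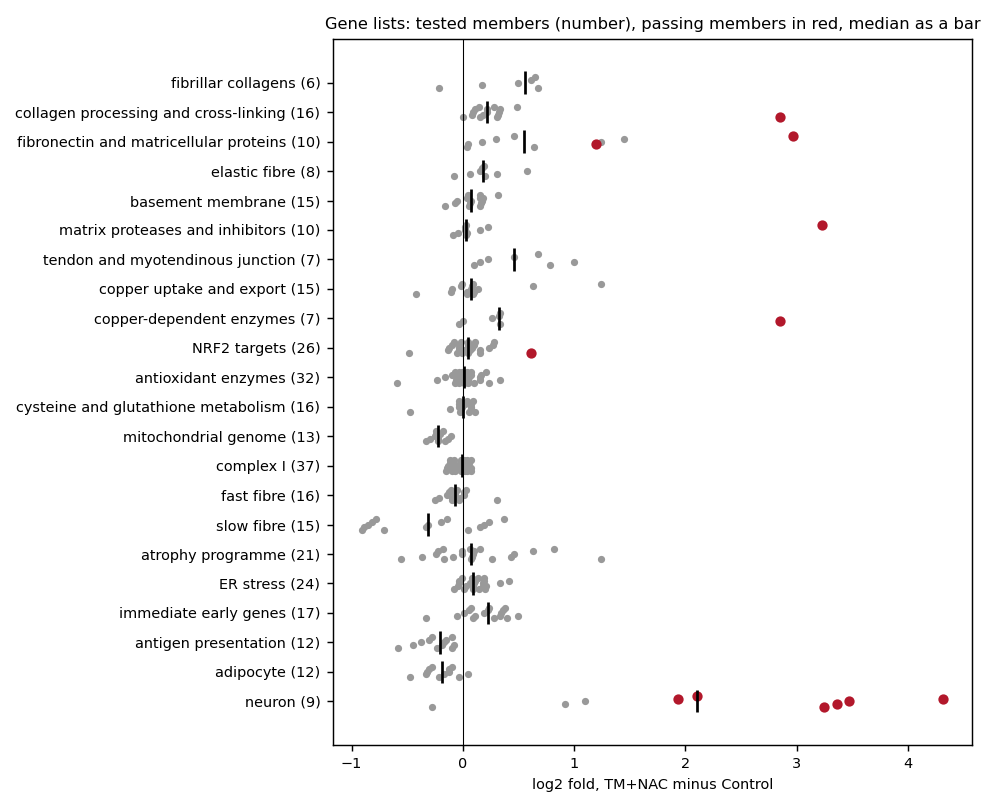
Log2 fold of TM+NAC minus Control (horizontal axis) for the tested members of 22 gene lists, one list to a row with its number of tested members, passing members in red and the list median as a bar. The neuron list has 6 red points between 1.93 and 4.32, the matrix lists hold Lox, Thbs1, Fn1 and Timp1, and the fibre, mitochondrial and atrophy lists have none.

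Direct tests compared TM+NAC with either compound alone, and a gene that did not pass may still differ. Without TM library 1 and NAC library 4, left out after the values were seen, 7 genes passed against TM and 4 against NAC. With all libraries, 3 genes passed against TM (0.0309%) and 3 genes passed against NAC (0.0309%). In both they were Lox, Thbs1 and Fn1. Lox had a log2 fold of 2.69 ± 0.28 against TM and 2.60 ± 0.28 against NAC (SE; adjusted p = 4.81e-05 and 7.78e-05), with 4.34 to 10.5 CPM in TM libraries and 4.59 to 10.1 CPM in NAC libraries. Thbs1 had 2.54 ± 0.35 against TM and 3.06 ± 0.36 against NAC (SE; adjusted p = 0.00172 and 0.000173), and Fn1 1.24 ± 0.17 against TM and 1.13 ± 0.17 against NAC (SE; adjusted p = 0.00172 and 0.00592). Timp1, with 3.36 ± 0.66 and 2.88 ± 0.64 (SE), did not pass at an adjusted p of 0.0750 against TM and 0.302 against NAC, and Hmox1, with 0.39 ± 0.13 and 0.64 ± 0.13, did not at 0.690 and 0.131. The contrasts share the TM+NAC libraries, so they are not independent of the one against Control.

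**Figure D5:**
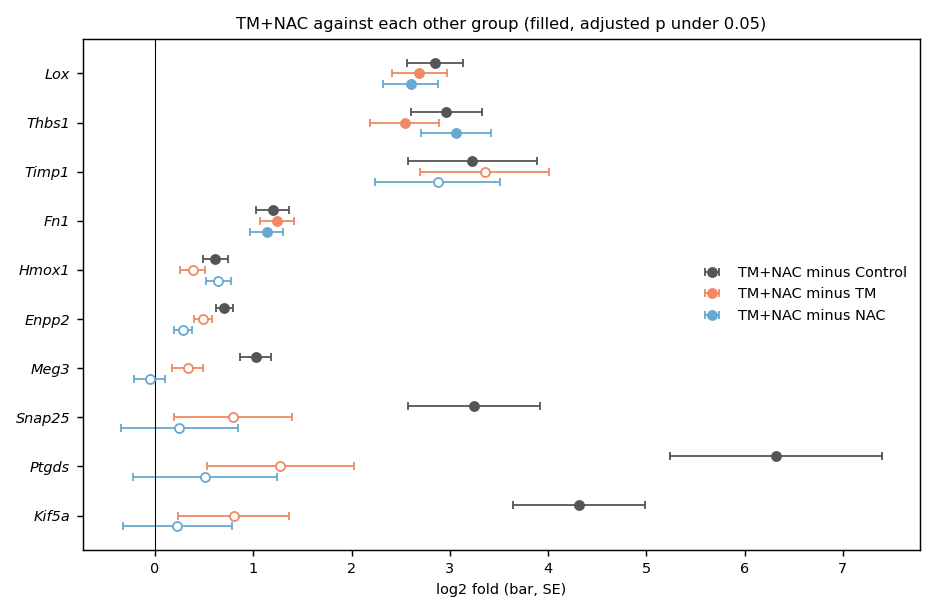
Log2 fold (horizontal axis; bars, SE) of 10 named genes in TM+NAC minus Control, minus TM and minus NAC, with filled symbols at an adjusted p under 0.05. The symbols of Lox, Thbs1 and Fn1 are filled in all 3 contrasts and lie close together, whereas Kif5a, Snap25 and Ptgds lie far from 0 only in the contrast with Control.

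Whether the joint change exceeded the sum of the single changes was tested as an interaction: on the log2 scale, TM+NAC minus NAC, less TM minus Control. Lox was the only gene to pass (0.0103% of those tested), with 2.44 ± 0.38 (SE; adjusted p = 0.0287). TM alone and NAC alone had log2 folds for Lox of 0.16 ± 0.27 and 0.25 ± 0.27 over Control (SE). Thbs1 had an interaction of 2.64 ± 0.49 (SE; adjusted p = 0.110) and Fn1 of 1.18 ± 0.24 (SE; adjusted p = 0.287). The number of genes with an interaction was 0 without Control library 2, 3 or 5, TM library 2, 3, 4 or 5, NAC library 1, 2 or 5, or TM+NAC library 2 or 5, 4 without TM library 1, 7 without NAC library 4, and 23 without those last 2 together.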

How the data were processed

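RNA was sequenced from 20 mouse gastrocnemius libraries, made from mRNA enriched on oligo(dT) beads with a uracil-labelled second strand, per the labels' protocols. The deposited table holds raw counts per gene, per the file headers, and FPKM made by the authors. The submitters' processing notes name cutadapt 1.9, FastQC, HISAT2 2.2.1, StringTie and the build GRCm38. How reads were counted, whether by strand, and with which annotation is not stated, so reads of overlapping and antisense genes may be mixed.

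Counts were fitted with edgeR 4.0.16 (quasi-likelihood test, TMM scaling, 4 groups of 5 libraries, R 4.3.3) over 9696 genes, those whose mean FPKM reached 1, with Benjamini-Hochberg adjustment and a threshold of 0.05. Every adjusted p in the text is edgeR's unless another tool is named. Log2 folds have an SE from that fit, and CPM are counts scaled by the library total. DESeq2 1.42.0 and limma 3.58.1, on voom weights or on log2(FPKM + 1), were alternatives. Named genes are up to 15 passing genes per direction by smallest p, without predicted genes, Rik clones, pseudogenes and genes under 1 FPKM in both groups, up to 6 passing or 4 other members per gene list, and a few genes of interest. The genes, lists and comparisons were chosen with earlier results of these data known. Libraries of a group differed by more than sampling noise (lowest chi-square per degree of freedom 16.2). The fit was checked on simulated counts. Sequences came from RefSeq (GRCm38.p6).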

Additional observations from a re-analysis of the deposited data

Results flagged for a closer look

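A library far from the other 4 of its group (gap over range above 0.71) was found in 7 of 96 groups of 5 libraries, over 48 named genes, and chance gives about 1 in 20. In TM+NAC, library 5 was high for Lox, at 68.8 CPM against 33.9 to 41.8 CPM in the others, and for Timp1, at 6.96 CPM against 2.90 to 3.09 CPM. Control library 4 was high for Mt1, at 10.02 CPM against 5.28 to 6.35 CPM, and low for Nsf, an ATPase of vesicle fusion, at 12.6 CPM against 14.1 to 14.8 CPM, and for Basp1, a growth cone protein, at 0.410 CPM against 1.18 to 1.43 CPM. Control library 3 was high for Gpm6b, a membrane protein of neurons and glia, at 8.65 CPM against 3.53 to 4.805 CPM, and for Ptgds, at 0.267 CPM against 0 in the others. The effect of TM on Lox differed with and without NAC, with an interaction of 2.44 ± 0.38 on the log2 scale (SE; adjusted p = 0.0287, edgeR). That call was lost with the replicate number as a block and in many of the fits that left out 1 library.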

How the results depend on the processing

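Lox, Thbs1, Fn1, Enpp2 and Chd3 passed against Control in all 22 alternatives tried for them, and no called gene among those followed changed direction. Slc31a1, Ccs, Mstn, Sod1 and Gclc, which did not pass, had log2 folds of either sign, between -0.36 and 0.21. Counts are given as higher and lower against Control, passing against TM, passing against NAC, and interaction, where the reported values are 30, 4, 3, 3 and 1. With no filter they were 541, 25, 21, 13 and 7, and at a mean FPKM of at least 5 all were 0. DESeq2 gave 57, 20, 19, 8 and 9, and all 34 genes were among its 77 against Control. Limma voom gave 7, 0, 5, 3 and 1, limma on log2(FPKM + 1) gave 45, 0, 6, 6 and 3, and limma on log2(FPKM + 0.1) gave 44, 1, 6, 5 and 1. These last scales moved the median of all genes to 0.09 and 0.11. Quantile normalization with limma gave 32, 7, 5, 4 and 1, median-ratio scaling 30, 3, 3, 3 and 1, and library totals without TMM 32, 0, 4, 3 and 1. Fitting only the groups compared gave 42, 15, 9 and 4, and a fold of at least 2 left 26, 1, 3, 3 and 1. The replicate block gave 35, 6, 3, 3 and 0; same-numbered TM+NAC and Control libraries correlated at -0.061 to 0.161, 2 of 5 over 0.1, and 3 libraries matched their own number best, so the numbers were not taken to pair them. Leaving out 1 library at a time gave 20 to 29, 0 to 6, 3 to 4, 3 to 4 and 0 to 7. As alternatives chosen after seeing the data, leaving out TM library 1 and NAC library 4 gave 53, 11, 7, 4 and 23, and leaving out Control libraries 1, 2 and 5 gave 6, 0, 3, 3 and 0. The cause of these changes was not tested. With 5 libraries a group and a median SE of 0.12 over all tested genes, small folds may have been missed.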
